A study of Homo sapiens with 16 samples.

Results

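The actin cytoskeleton and focal adhesion genes described here are 44 genes chosen by name: actins, filament crosslinkers and calponin relatives, non-muscle myosin II subunits, tropomyosins and caldesmon, adaptors of integrin adhesions, serum response factor with its coactivators, RND3, RHOB, DIAPH1, ROCK1, ROCK2 and LIMK1, monomer-binding proteins and caveolins. Of the 44, 42 were measured by at least 1 probe set annotated to that gene alone, among 19775 genes measured in all. FLNA and FLNC, which encode filamins, had no such probe set and were not analysed here. Each gene was read from its brightest single-gene probe set, and the 42 genes had 128 single-gene probe sets between them.

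The samples were SW480 cells, an established human colorectal cancer line that carries a truncated APC protein, hybridised to Affymetrix arrays. In siTAZ cells, which carried a stable empty vector, an siRNA depleted TAZ, the transcriptional coactivator encoded by WWTR1. In sibcat cells, also with the empty vector, an siRNA depleted beta-catenin, the Wnt effector encoded by CTNNB1. APC cells carried a stable vector for wild-type APC and received control siRNA, and control cells carried the empty vector and received control siRNA (titled siGFP). All 4 groups were therefore stably transfected and given an siRNA, and each had 4 arrays, lettered A to D. The labels call these biological replicates without saying whether they were separate cultures, so p-values reflect how far these arrays spread and that spread may be technical. Nor do they say whether the APC cells were 1 clone.

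Cells pull on their surroundings through actin filaments that are bundled by alpha-actinins, stabilised by tropomyosins and contracted by non-muscle myosin II. The filaments end in focal adhesions, where integrins are coupled to actin by talin, vinculin and LIM-domain adaptors. ROCK kinases drive the contraction of these filaments and formins their growth. The pool of actin monomers in turn holds the coactivators MRTFA and MRTFB out of the nucleus, and once released they act with serum response factor on many genes of the same machinery; TAZ activity is known to depend on actin tension.

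Before the comparisons, the labels and arrays were checked. The TAZ gene WWTR1 stood at 6.91 ± 0.15 in siTAZ cells against 10.28 ± 0.11 in control cells (log2 signal, SD, n = 4), 9.66% of the control level, and CTNNB1 stood at 12.9% of control in sibcat cells. The APC probe set did not separate APC cells from control cells (8.31 ± 0.18 against 8.22 ± 0.33, limma adjusted p = 0.7093). The other perturbations also moved these genes: WWTR1 was 0.70 log2 units higher in sibcat cells and 0.73 higher in APC cells than in control cells, and YAP1, the TAZ paralog, was 1.33 lower in sibcat cells and 0.76 lower in APC cells. All 8 epithelial markers examined were at or above the median probe set level of 5.10 in every group, whereas 5 of 7 fibroblast markers and 4 of 8 smooth muscle markers were below it in every group. The smooth muscle markers spanned 3.63 to 7.88 in group means, with MYH11 between 5.28 and 5.43 and DES between 5.54 and 5.67, and of this list 2 were called higher in sibcat cells and 1 in APC cells. Of the epithelial markers, 3 were called lower in siTAZ, 1 in sibcat and 5 in APC cells, and CDX2 was called higher in siTAZ and CDH1 and VIL1 in sibcat cells; the part of either list in the results was not tested. The excess of the 3′ over the 5′ control probe set of ACTB, which grows when labelled RNA is shorter, was lower in arrays C and D than in A and B of every group. It was 3.09, 2.62, 2.25 and 2.30 in siTAZ arrays A to D, against 2.26, 2.09, 1.96 and 1.90 in control arrays, higher in siTAZ for each letter. Over all genes, 9.11% had A and B on one side of C and D in all 4 groups, and of the 42 actin and adhesion genes 9 did: MYL9, MYH9, ZYX, ILK, VASP and PFN1 were higher in A and B, and ACTN1, ROCK1 and CAV2 were lower.

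Across the 3 comparisons with control, 33 of the 42 genes (78.6%) passed the test in at least 1, against 54.8% of all genes measured. The test was limma's moderated test over all 16 arrays, without a replicate block, with Benjamini-Hochberg adjustment over 19775 genes. Genes with an adjusted p under 0.05 are called higher or lower. The median SD within a group was 0.106 log2 units for these genes and 0.125 for all genes. A filter at the median probe set level kept 39 of the 42 genes but only 12559 of all 19775, so these genes were also brighter. The part of spread and brightness in the shares called was not tested. Of the 42 genes, 8 changed in all 3 comparisons: TAGLN2, MYH10, LIMS1, TGFB1I1, MRTFA, MRTFB, ROCK2 and LIMK1. The share of all genes that did so was not counted, so these are listed without a claim that 8 is many. Another 9 passed in none of the 3: ACTG2, TAGLN, CNN1, CNN3, TPM2, TLN1, PXN, VASP and PFN1. Of these, TLN1, PXN, VASP and PFN1 passed in a fit that also held the replicate letter as a block, with values given beside each comparison. The 3 comparisons share the same 4 control arrays.

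**Figure D1:**
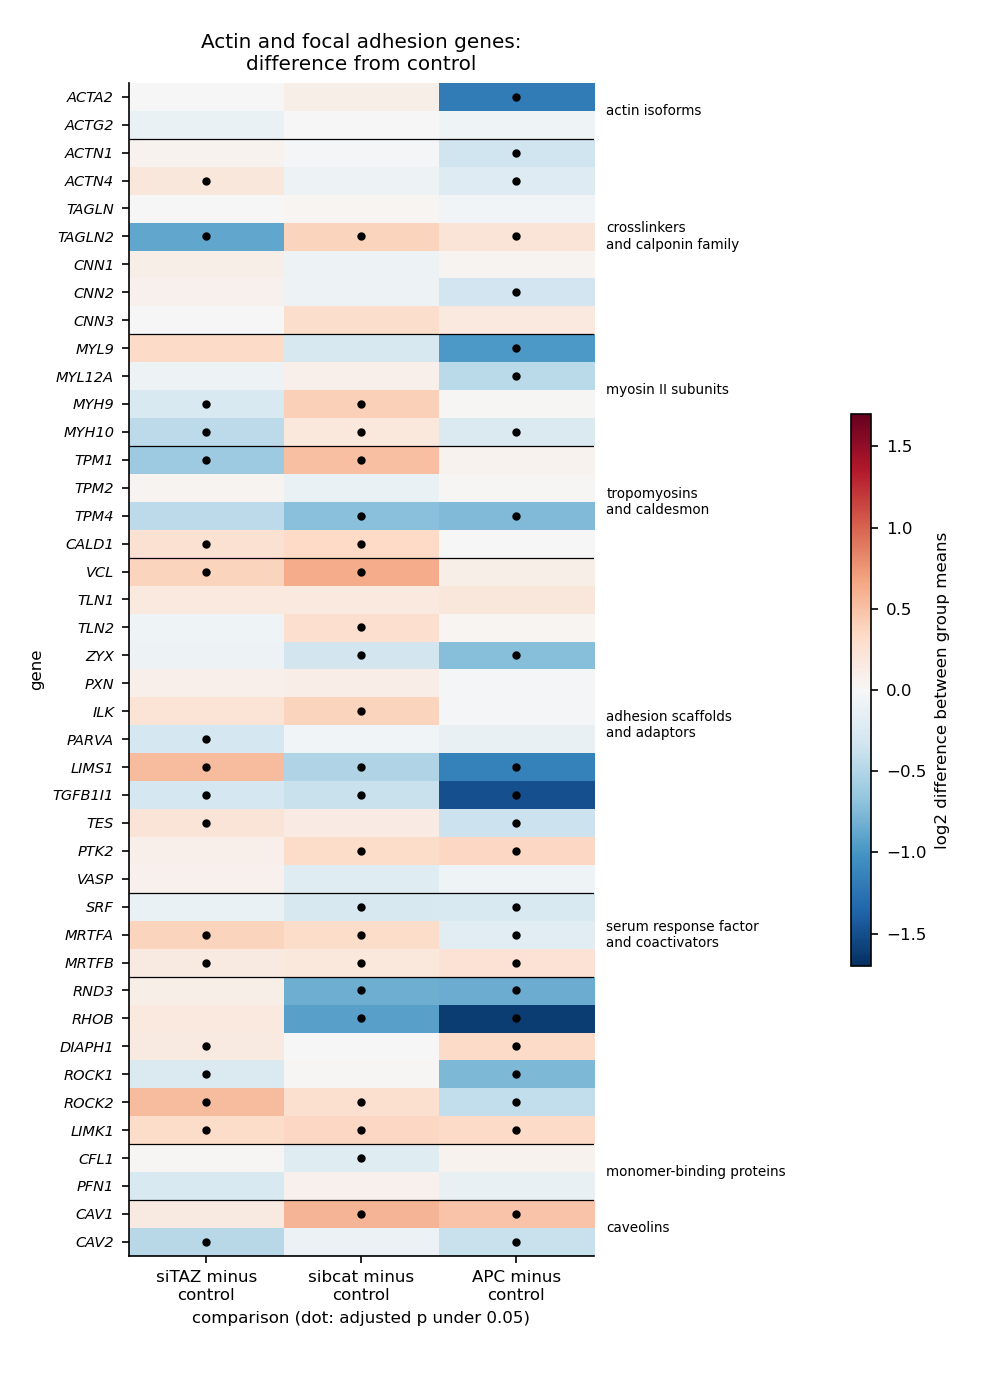
Difference of each group mean from the control mean (log2, colour) for the 42 measured genes, grouped by role (1 group is left without a label), with siTAZ, sibcat and APC cells in columns; a dot marks an adjusted p under 0.05. The APC column holds 19 genes called lower and 6 called higher, the sibcat column 8 and 14, and the siTAZ column 8 and 10.

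APC cells had less mRNA than control cells of smooth muscle alpha-actin, myosin light chains, both ROCK kinases, RHOB, RND3 and several LIM-domain adhesion proteins. Of the 42 genes, 19 were called lower and 6 higher. The background was 17.1% of all genes lower and 16.6% higher, against 45.2% and 14.3% of the 42. The median difference of the 42 genes was -0.104, against 0.01 over all genes. Of those called lower, 9 differed at least 1.5-fold, and none of those called higher did; of all genes, 5.72% were called lower and 3.73% higher by that factor. With the replicate block, TLN1, talin 1, passed as higher (0.20, adjusted p = 0.03141) and PFN1, profilin 1, as lower (-0.13, adjusted p = 0.03343). With arrays A and B alone 15 genes were called lower and 5 higher, and with C and D alone 16 and 4. The shares of all genes called in such refits, here and below, were not counted. In RNA from whole cultures, fewer cells expressing a gene and less RNA per cell cannot be told apart.

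Serum response factor binds the CArG box, and the proximal promoters of the genes are shown first because the box was found in 8 genes called lower in APC cells. Windows from 250 bases before to 50 bases after the transcription start, from RefSeq on GRCh38.p14, were found for 38 of the measured genes (73 windows); TAGLN, PTK2, PARVA and MYL9 had no entry. The box, searched on both strands, was present for 9 of the 38 genes (23.7%), against 1.6% of all 27305 genes with a window and 1.29% of all 35116 windows; the measured genes have more windows each than genes in general. Of 18 genes called lower in APC cells, 8 held it (ACTN1, CNN2, RND3, ROCK2, SRF, TES, TGFB1I1 and TPM4), and of the 20 others only ACTG2 did. These are letter matches in a gene list that includes textbook targets of serum response factor, given as a description with no test. APC and control arrays did not overlap for TGFB1I1, RND3 and ROCK2, nor for ACTN1, CNN2, TES and SRF. A total of 5 windows is printed 5′ to 3′ on the gene's strand, with the CArG box in capitals. They are TGFB1I1, RND3 and ROCK2, SRF itself with a pair of boxes, and ACTG2, which holds a pair but did not pass the test.
TGFB1I1 (chr16:31473109-31473208, + strand): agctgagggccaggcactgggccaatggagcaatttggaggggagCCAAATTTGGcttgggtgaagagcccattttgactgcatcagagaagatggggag
RND3 (chr2:150487713-150487812, - strand): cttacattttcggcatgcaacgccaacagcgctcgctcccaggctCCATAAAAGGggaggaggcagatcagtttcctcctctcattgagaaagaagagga
ROCK2 (chr2:11345456-11345555, - strand): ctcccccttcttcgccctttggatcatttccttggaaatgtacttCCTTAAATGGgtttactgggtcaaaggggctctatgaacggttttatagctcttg
SRF (chr6:43171194-43171293, + strand): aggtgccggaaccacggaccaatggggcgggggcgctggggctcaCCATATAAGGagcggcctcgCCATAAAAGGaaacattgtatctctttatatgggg
ACTG2 (chr2:73892853-73892952, + strand): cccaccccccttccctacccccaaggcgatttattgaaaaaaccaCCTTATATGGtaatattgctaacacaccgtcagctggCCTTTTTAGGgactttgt
The box begins 51 bases before the start in TGFB1I1, 100 in RND3 and 73 in ROCK2. The sequence GGAATG, recognised by TEAD factors, the DNA-binding partners of TAZ, was searched on both strands in the same windows and was present for 13 of the 38 genes (34.2%), against 16.7% of all genes. It was in 6 of the 18 genes called lower in APC cells and 7 of the 20 others. The TCF core CTTTGAT was in 1 of the 38, CNN2, against 3.18% of all genes. Matches of different motifs were counted separately, whether or not they overlap.

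Among the actins, ACTA2, smooth muscle alpha-actin, read 6.84, 6.56, 6.54 and 6.52 in APC arrays A to D, against 7.80, 7.66, 7.90 and 7.83 in control arrays. Every APC array was well below the lowest control array. The fold was 2.27 lower (log2 difference -1.18, SE 0.08, adjusted p = 2.705e-09). A pair of dim ACTA2 probe sets gave -0.04 and -0.23 and did not pass, and the average of all 3 was -0.484. ACTG2, smooth muscle gamma-actin, stood near the median probe set level and did not pass (-0.08).

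Of the 4 myosin II subunits, 3 were called lower. MYL9, a regulatory light chain, read 5.48, 5.83, 4.93 and 5.20 in APC arrays, against 6.69, 6.31, 6.15 and 6.21 in control arrays. The groups did not overlap, but APC arrays C and D lay near the median probe set level. The log2 difference was -0.98 (SE 0.17, adjusted p = 2.247e-04); a dimmer second probe set of MYL9 gave -0.28 and did not pass. MYL12A, a second regulatory light chain, stood at 11.42 ± 0.12 in APC cells against 11.88 ± 0.14 in control cells (-0.46), and MYH10, the heavy chain of myosin IIB, at 9.80 ± 0.03 against 10.04 ± 0.08 (-0.24). MYH9, the heavy chain of myosin IIA, did not pass (0.03).

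Of the 12 adhesion adaptors, 4 fell and 1 rose. TGFB1I1, also called Hic-5, a LIM protein of focal adhesions and a relative of paxillin, read 7.87, 7.44, 7.74 and 7.58 in APC arrays, against 9.2, 9.09, 9.15 and 9.19 in control arrays. It was 2.83-fold lower, and the groups were far apart (-1.50, SE 0.08, adjusted p = 6.976e-11). LIMS1, or PINCH1, the LIM partner of integrin-linked kinase, read 6.29, 6.12, 6.16 and 6.06 in APC arrays, against 7.47, 7.05, 7.22 and 7.49 in control arrays. That is -1.15 with no overlap (adjusted p = 3.933e-08), its second probe set gave -0.81, and the average of all its sets was -0.623. ZYX, which recruits VASP to stressed filaments, read 6.34, 6.30, 6.18 and 6.07 in APC arrays, against 7.0, 7.07, 6.87 and 6.87 in control arrays. All 4 APC arrays were below the control arrays (-0.73, adjusted p = 4.398e-07), as in its second probe set (-0.59). TES, or testin, a ZYX-binding LIM protein, stood at 10.76 ± 0.10 in APC cells against 11.12 ± 0.12 in control cells. PTK2, the focal adhesion kinase FAK, was the adaptor that rose, to 8.79 ± 0.09 in APC cells against 8.44 ± 0.17 in control cells (0.36, adjusted p = 0.001057).

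RHOB, whose gene responds quickly to stress and growth factors, read 8.79, 8.6, 8.52 and 8.45 in APC arrays, against 10.38, 10.22, 10.01 and 10.22 in control arrays. By the brightest probe sets it was 3.07-fold lower (-1.62, SE 0.10, adjusted p = 1.4e-09). The other 4 RHOB probe sets, all far dimmer, gave -0.30 to -0.11, of which 2 passed, and the average of all 5 was -0.482. RND3, which binds and inhibits ROCK1, read 9.25, 9.23, 9.25 and 9.21 in APC arrays, against 10.07, 10.04, 10.11 and 10.12 in control arrays. The arrays within each group were nearly equal and the groups far apart (-0.85, adjusted p = 2.958e-10). ROCK1, a kinase that activates myosin II, read 9.72, 9.69, 10.01 and 9.85 in APC arrays, against 10.57, 10.46, 10.64 and 10.65 in control arrays. The groups were apart by more than their own spread (-0.76, adjusted p = 3.849e-07), and the average of all ROCK1 probe sets was -0.251. ROCK2, its paralog, stood at 9.99 ± 0.03 in APC cells against 10.40 ± 0.03 in control cells (-0.41). DIAPH1, a formin that extends filaments, rose to 10.16 ± 0.02 in APC cells against 9.84 ± 0.07 in control cells. Averaged over all DIAPH1 probe sets the rise did not pass (0.122, adjusted p = 0.1637). LIMK1, which inactivates cofilin, rose to 7.08 ± 0.10 against 6.75 ± 0.14. Without probe sets ending _x_at, _s_at or _a_at, LIMK1 did not pass (0.025).

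SRF stood at 7.07 ± 0.09 in APC cells against 7.33 ± 0.11 in control cells (-0.26, adjusted p = 0.006437). The SRF call was lost when its probe sets were averaged (-0.122, adjusted p = 0.1338), and its dimmer second probe set gave 0.02. It was also lost with arrays A and B alone (-0.265) and with C and D alone (-0.26). MRTFB, a coactivator of SRF, rose (0.25). ACTN1 and ACTN4, the non-muscle alpha-actinins, fell by 0.33 and 0.23, and CNN2, calponin 2, by 0.33; TAGLN2, a calponin relative, rose by 0.22. CAV1, the main protein of caveolae, rose to 10.30 ± 0.05 in APC cells against 9.81 ± 0.18 in control cells, and CAV2 read lower (-0.37), though its groups overlapped. The ACTN4 call was lost without control array A (-0.199) or APC array D (-0.189). MRTFA was called lower (-0.20, adjusted p = 0.02997), with overlapping groups; the call was lost without control array A, C or D or APC array A or D, with differences between -0.193 and -0.153, and a dimmer MRTFA probe set rose by 0.41. TPM4, a cytoskeletal tropomyosin, read 9.01, 9.03, 8.39 and 8.21 in APC arrays, against 9.81, 9.85, 9.0 and 8.99 in control arrays: A and B were above C and D in both groups, and the groups overlapped. Its call (-0.75, adjusted p = 0.0312) was lost without control array A (-0.62) or B (-0.607) or APC array C (-0.662) or D (-0.602). The exact two-sided permutation p, which ignored the replicate letters, was 0.1714, unadjusted. Within each letter the APC array was below the control array. The call was kept with the replicate block and lost with array weights (-0.64).

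**Figure D2:**
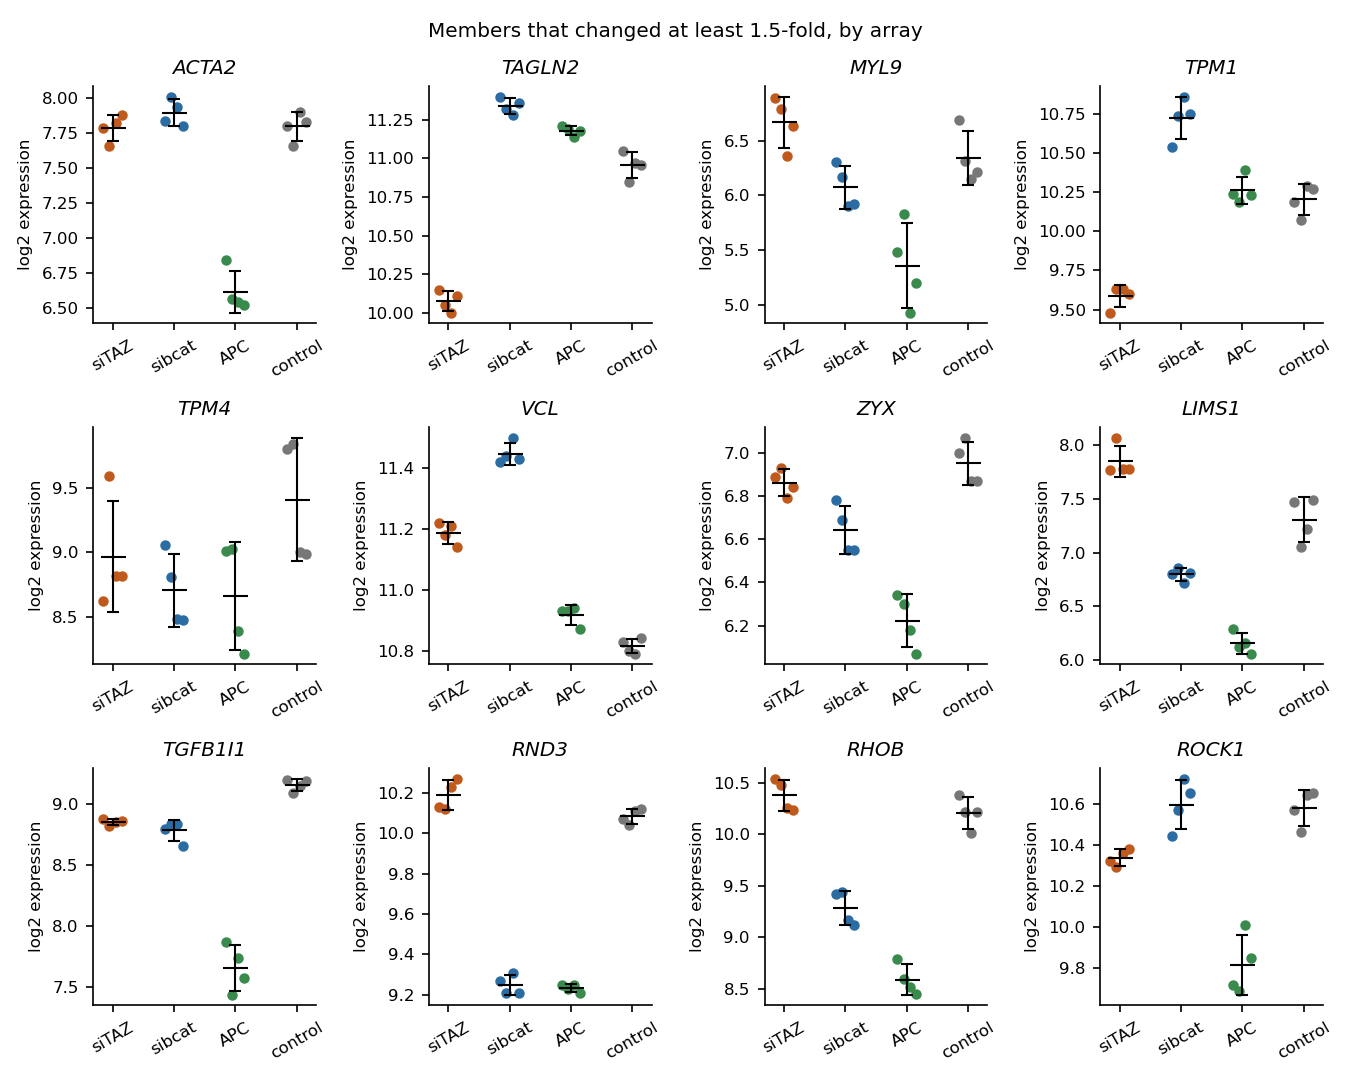
Log2 signal in each of the 16 arrays for the 12 genes that passed the test with at least a 1.5-fold difference in a comparison with control; points are arrays and bars are group means. RHOB lies between 8.45 and 8.79 in APC arrays against 10.01 to 10.38 in control arrays, and TPM4 arrays of different groups overlap.

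In sibcat cells, vinculin, TPM1, MYH9, CAV1 and ILK were among the genes higher than in control cells. RHOB, RND3, TPM4 and the LIM proteins LIMS1, TGFB1I1 and ZYX were among those lower. Of the 42 genes, 14 were called higher (33.3%) and 8 lower (19%), beside a background of 18.6% higher and 17.3% lower over all genes. The share called lower was thus near that of all genes. The median of the 42 genes was 0.051, against 0 over all genes. At least 1.5-fold differences were found for 1 gene called higher and 3 called lower, where 5.46% and 4.5% of all genes differed so. With the replicate block, PXN, paxillin, passed as higher (0.12, adjusted p = 0.04473), and VASP, a filament-elongating protein, passed as lower (-0.21, adjusted p = 0.008415). With arrays A and B alone 10 genes were called higher and 4 lower, and with C and D alone 13 and 7.

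VCL encodes vinculin, which strengthens the link from talin to actin. It read 11.42, 11.44, 11.50 and 11.43 in sibcat arrays, against 10.83, 10.80, 10.79 and 10.84 in control arrays. The arrays of each group lay close together, and all sibcat arrays were above all control arrays (0.63, 1.55-fold, SE 0.04, adjusted p = 2.989e-09); averaged with a dim second probe set the difference was 0.391. TPM1, a tropomyosin that stabilises stress fibre actin, read 10.54, 10.74, 10.86 and 10.75 in sibcat arrays, against 10.19, 10.07, 10.29 and 10.27 in control arrays. Every sibcat array was above every control array (0.52, adjusted p = 1.906e-05), and 4 further TPM1 probe sets rose by 0.43 to 0.89. MYH9 stood at 9.28 ± 0.07 in sibcat cells against 8.88 ± 0.14 in control cells (0.41) and MYH10 at 10.21 ± 0.03 against 10.04 ± 0.08 (0.18). CALD1, caldesmon, rose by 0.35 and TAGLN2 by 0.38. The average of all CALD1 probe sets was 0.111 and did not pass.

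CAV1 read 10.33, 10.39, 10.41 and 10.41 in sibcat arrays, against 9.85, 9.55, 9.90 and 9.95 in control arrays. The groups were separate, with control array B the lowest (0.57, adjusted p = 4.382e-06), and the second CAV1 probe set rose by 0.48. ILK, the scaffold of the complex with LIMS1 and PARVA, rose to 9.17 ± 0.18 in sibcat cells against 8.79 ± 0.13 in control cells (0.38), while LIMS1 was lower, at 6.80 ± 0.06 against 7.31 ± 0.21 (-0.51). PARVA, alpha-parvin, the third partner, did not pass (-0.04). PTK2 rose by 0.31. TLN2, talin 2, was near the median probe set level (0.28 higher), and its call was lost without control array C (0.272) or D (0.222) or sibcat array B (0.276) or C (0.243).

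RND3 read 9.27, 9.21, 9.31 and 9.21 in sibcat arrays, against 10.07, 10.04, 10.11 and 10.12 in control arrays. The sibcat arrays were thus in the same range as the APC arrays above (-0.84, adjusted p = 4.735e-10). RHOB read 9.42, 9.44, 9.17 and 9.12 in sibcat arrays, against 10.38, 10.22, 10.01 and 10.22 in control arrays. The groups did not overlap (-0.92, adjusted p = 1.462e-06), and the average of all RHOB probe sets was -0.357. TGFB1I1 stood at 8.79 ± 0.09 in sibcat cells against 9.16 ± 0.05 in control cells (-0.37), ZYX at 6.64 ± 0.11 against 6.95 ± 0.10 (-0.31) and SRF at 7.05 ± 0.11 against 7.33 ± 0.11 (-0.28). MRTFA and MRTFB rose by 0.31 and 0.18, ROCK2 by 0.27 and LIMK1 by 0.35. Averaged over all probe sets of each gene, none of these rises passed (0.128, 0.068, 0.066 and 0.176). CFL1, cofilin 1, which severs filaments, fell by 0.20 and PFN1 did not pass (0.07). ACTA2 (0.10), MYL9 (-0.27) and ROCK1 (0.02) did not pass in sibcat cells, though MYL9 did with the replicate block (adjusted p = 0.04827).

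TPM4 read 9.06, 8.81, 8.48 and 8.47 in sibcat arrays, against 9.81, 9.85, 9.0 and 8.99 in control arrays. Sibcat array A was above control arrays C and D. The call (-0.71, adjusted p = 0.04027) was lost without control array A (-0.575) or B (-0.562) or sibcat array B (-0.742), C (-0.632) or D (-0.629). The exact two-sided permutation p, which ignored the replicate letters, was 0.0857, unadjusted. Within each letter the sibcat array was below the control array. The call was kept with the replicate block and lost with array weights (-0.621). A pair of other bright TPM4 probe sets gave -0.54 and -0.61 in sibcat cells and -0.55 and -0.75 in APC cells, and all 4 values passed.

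In siTAZ cells, by the brightest probe sets, TAGLN2 and TPM1 were lower than in control cells, and vinculin, LIMS1, ROCK2 and MRTFA were higher. The rises of ROCK2 and MRTFA did not pass when all probe sets were averaged (0.163 and 0.075). Of the 42 genes, 10 were called higher (23.8%) and 8 lower (19%), against a background of 17% and 13.1% over all genes. The median was 0.061 against 0.015 over all genes. Among the 42, 2 genes differed at least 1.5-fold, both lower, where 2.96% of all genes were called lower and 3.55% higher by that factor. With the 3′ excess of ACTB as a covariate, the calls of ROCK1 (-0.124, adjusted p = 0.2851), ACTN4 (0.057, adjusted p = 0.5409), LIMK1 (0.219, adjusted p = 0.1053) and DIAPH1 (0.137, adjusted p = 0.09328) were lost. In the same fit PFN1 (-0.633, adjusted p = 5.699e-05), TPM4 (-0.813, adjusted p = 0.04634) and ZYX (-0.224, adjusted p = 0.02119) passed as lower. PFN1 read 11.19, 11.15, 10.73 and 10.73 in siTAZ arrays, against 11.49, 11.30, 11.02 and 11.04 in control arrays, and the groups overlapped. With arrays A and B alone 7 genes were called higher and 4 lower, and with C and D alone 5 and 9. Averaging all probe sets of a gene left 3 called higher and 10 lower.

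TAGLN2, transgelin 2, a calponin-family protein that binds and stabilises filaments, read 10.15, 10.05, 10.00 and 10.11 in siTAZ arrays, against 11.05, 10.85, 10.97 and 10.96 in control arrays. All siTAZ arrays were below all control arrays, although TAGLN2 was above control in the other perturbations. Its fold was 1.84 lower (-0.88, SE 0.05, adjusted p = 1.729e-09), and the second probe set fell by 1.13. TPM1 read 9.48, 9.63, 9.63 and 9.60 in siTAZ arrays, against 10.19, 10.07, 10.29 and 10.27 in control arrays. The groups did not overlap (-0.62, 1.54-fold lower, SE 0.07, adjusted p = 4.106e-06). TPM1 is spliced into many isoforms, and its probe sets differed: the 3 brightest fell (-0.62, -0.77 and -0.82), whereas the next, which rose in sibcat cells, gave 0.01 and did not pass.

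Both myosin heavy chain genes were lower: MYH10 stood at 9.59 ± 0.07 in siTAZ cells against 10.04 ± 0.08 in control cells (-0.44, adjusted p = 3.172e-06). MYH9 overlapped between groups (8.62 ± 0.21 against 8.88 ± 0.14, adjusted p = 0.04605), and its call was lost without any one of 12 arrays (control A or B, siTAZ B, C or D, any sibcat array, or APC B, C or D), with differences between -0.262 and -0.182. CAV2 was lower (-0.48), as was TGFB1I1 (-0.30). PARVA read 8.91 ± 0.05 in siTAZ cells against 9.21 ± 0.06 in control cells (-0.30), but another of its probe sets rose by 0.28. ROCK1 was lower by its brightest probe set (-0.24) and by a second one (-0.61); the brightest lost its call without control array C (-0.223) or D (-0.219) or siTAZ array B (-0.227).

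Among the genes that were higher, ROCK2 read 10.90, 10.93, 10.94 and 11.0 in siTAZ arrays, against 10.42, 10.36, 10.42 and 10.41 in control arrays. The groups did not overlap (0.54, adjusted p = 3.378e-08), although a dimmer second probe set of ROCK2 gave -0.22 and did not pass. VCL read 11.22, 11.18, 11.21 and 11.14 in siTAZ arrays, against 10.83, 10.80, 10.79 and 10.84 in control arrays (0.37). LIMS1 read 7.77, 8.07, 7.78 and 7.78 in siTAZ arrays, against 7.47, 7.05, 7.22 and 7.49 in control arrays (0.54, adjusted p = 2.424e-04), and its second probe set rose by 0.53. For LIMS1 the direction was thus the opposite of that in sibcat and APC cells. MRTFA rose by 0.38, LIMK1 by 0.31, CALD1 by 0.26 and TES by 0.22. Averaged over all probe sets of each gene, none of these rises passed (0.075, 0.065, 0.143 and 0.136). A further 3 weaker rises depended on single arrays. DIAPH1 (0.15) lost its call without control array A (0.124) or B (0.134) or siTAZ array A (0.129) or C (0.146). MRTFB (0.16) lost its call without control array A or B or siTAZ array A, C or D, with differences between 0.137 and 0.147, and ACTN4 (0.20) without control array B, C or D or siTAZ array A, B or D, between 0.161 and 0.208. RHOB (0.17), RND3 (0.10) and ACTA2 (-0.01) did not pass in siTAZ cells.

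The groups were next set directly against each other. APC cells compared with sibcat cells had 22 of the 42 genes lower (52.4%) and 2 higher (4.76%), with backgrounds of 21.7% and 20.3%. The median was -0.219 against 0.008 over all genes. ACTA2 stood at 6.62 ± 0.15 in APC cells against 7.90 ± 0.10 in sibcat cells (-1.28, adjusted p = 6.72e-10), and TGFB1I1 at 7.66 ± 0.19 against 8.79 ± 0.09 (-1.13, adjusted p = 2e-09). By the brightest probe sets all 4 myosin II subunits were lower, by 0.71 for MYL9, 0.55 for MYL12A, 0.42 for MYH10 and 0.38 for MYH9. Another MYL12A probe set was called higher, and the average of its sets was 0.021. The second probe set of MYL9 gave -0.12 and did not pass. ROCK1, ROCK2, RHOB, LIMS1 and VCL were lower by 0.53 to 0.78. Averaged over all probe sets, RHOB (-0.124) and VCL (-0.145) did not pass. DIAPH1 (0.31) and CFL1 (0.27) were higher. RND3 gave -0.015 (95% interval -0.116 to 0.086) and SRF 0.02, neither past the threshold. With the replicate block, ACTN4 (-0.13, adjusted p = 0.03524), PXN (-0.142, adjusted p = 0.01485) and PFN1 (-0.205, adjusted p = 0.001924) passed as lower, and the TLN2 call (-0.25) was lost (adjusted p = 0.05826).

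siTAZ cells compared with APC cells had 17 genes higher (40.5%) and 8 lower (19%), with backgrounds of 22.4% and 19.9%. Of the 17, 9 differed at least 1.5-fold, as did 8.9% of all genes: RHOB (1.79), LIMS1 (1.69), MYL9 (1.31), TGFB1I1 (1.2), ACTA2 (1.17), ROCK2 (0.95), RND3 (0.95), ZYX (0.64) and TES (0.58). RHOB averaged 10.38 ± 0.15 in siTAZ cells and 8.59 ± 0.15 in APC cells (adjusted p = 2.185e-10). TAGLN2 (-1.10) and TPM1 (-0.68) were the pair lower by that factor, beside 6.38% of all genes. siTAZ cells compared with sibcat cells had 10 genes higher (23.8%) and 11 lower (26.2%), beside backgrounds of 18.9% and 17.8%. The lower genes were led by TAGLN2 (-1.26), TPM1 (-1.14), MYH9 (-0.66) and MYH10 (-0.62), and the higher ones by RHOB (1.09), LIMS1 (1.05), RND3 (0.94) and MYL9 (0.59). TGFB1I1 (0.07) and ACTA2 (-0.11) did not pass between siTAZ and sibcat cells. The second probe set of MYL9 gave 0.255 for siTAZ against APC cells and 0.138 for siTAZ against sibcat cells, and passed in neither. With the replicate block, SRF (0.167, adjusted p = 0.03883) passed as higher, and MYL12A (-0.168, adjusted p = 0.0459) and PFN1 (-0.335, adjusted p = 4.112e-05) as lower.

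**Figure D3:**
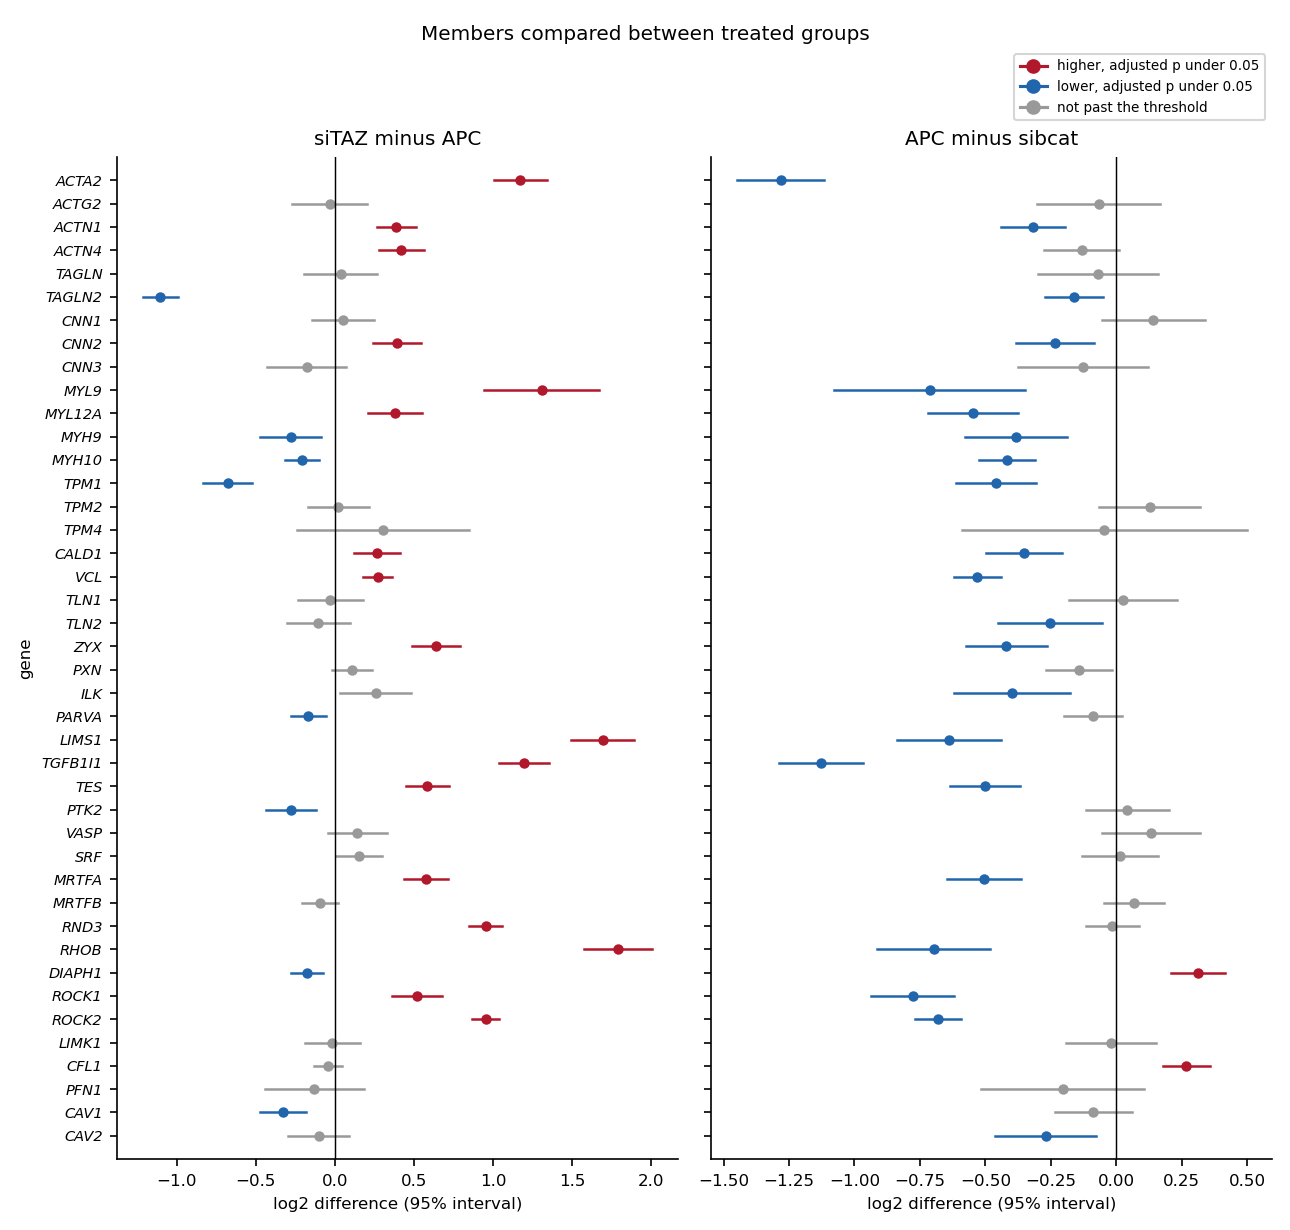
Log2 difference with 95% interval for the 42 genes, siTAZ minus APC cells on the left and APC minus sibcat cells on the right; red marks higher and blue lower at an adjusted p under 0.05, grey the rest. In siTAZ cells RHOB and LIMS1 lie 1.79 and 1.69 above APC cells and TAGLN2 1.10 below, and in APC cells ACTA2 lies 1.28 below sibcat cells.

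Changes of 12 pairs of related genes in the list were set side by side. The exact test used could not bring a single pair past the threshold after adjustment, so it does not tell whether a pair differed. The change of ROCK2 was above that of ROCK1 by 0.78 in siTAZ cells, 0.25 in sibcat cells and 0.35 in APC cells, all relative to control cells, and the change of CAV2 was below that of CAV1 by 0.63, 0.68 and 0.86 in siTAZ, sibcat and APC cells. The CAV2 differences rest on the brightest probe set: the next one rose by 0.68 in sibcat cells and 0.39 in APC cells. TPM1 moved relative to TPM2 by -0.66 in siTAZ cells and 0.63 in sibcat cells. Of 36 exact two-sided permutation tests over 12 pairs, 16 reached 0.0286, the smallest p that 4 against 4 arrays allow. After Benjamini-Hochberg adjustment the smallest was 0.0643. With that floor, passing would have needed more of the 36 tests to reach it, however far apart a pair was.

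Other probe sets of some genes disagreed with the one used. TAGLN, transgelin or SM22, a smooth muscle marker, did not pass by its brightest probe set (0.00 in siTAZ, 0.03 in sibcat and -0.04 in APC cells, each against control cells). The remaining pair of TAGLN probe sets, at or under the median probe set level in control cells, fell by 0.79 and 0.61 in siTAZ cells, 0.64 and 0.64 in sibcat cells and 0.53 and 0.35 in APC cells. For MYL12A, dimmer probe sets fell by 0.59 and 0.84 in siTAZ cells, where the brightest gave -0.08. TPM4 probe sets other than the one used fell in siTAZ cells by 0.54 and 0.53, where that one did not pass (-0.45). CNN1, calponin 1, and CNN3 stayed below the median level in all 16 arrays and changed in no comparison with control.

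**Figure D4:**
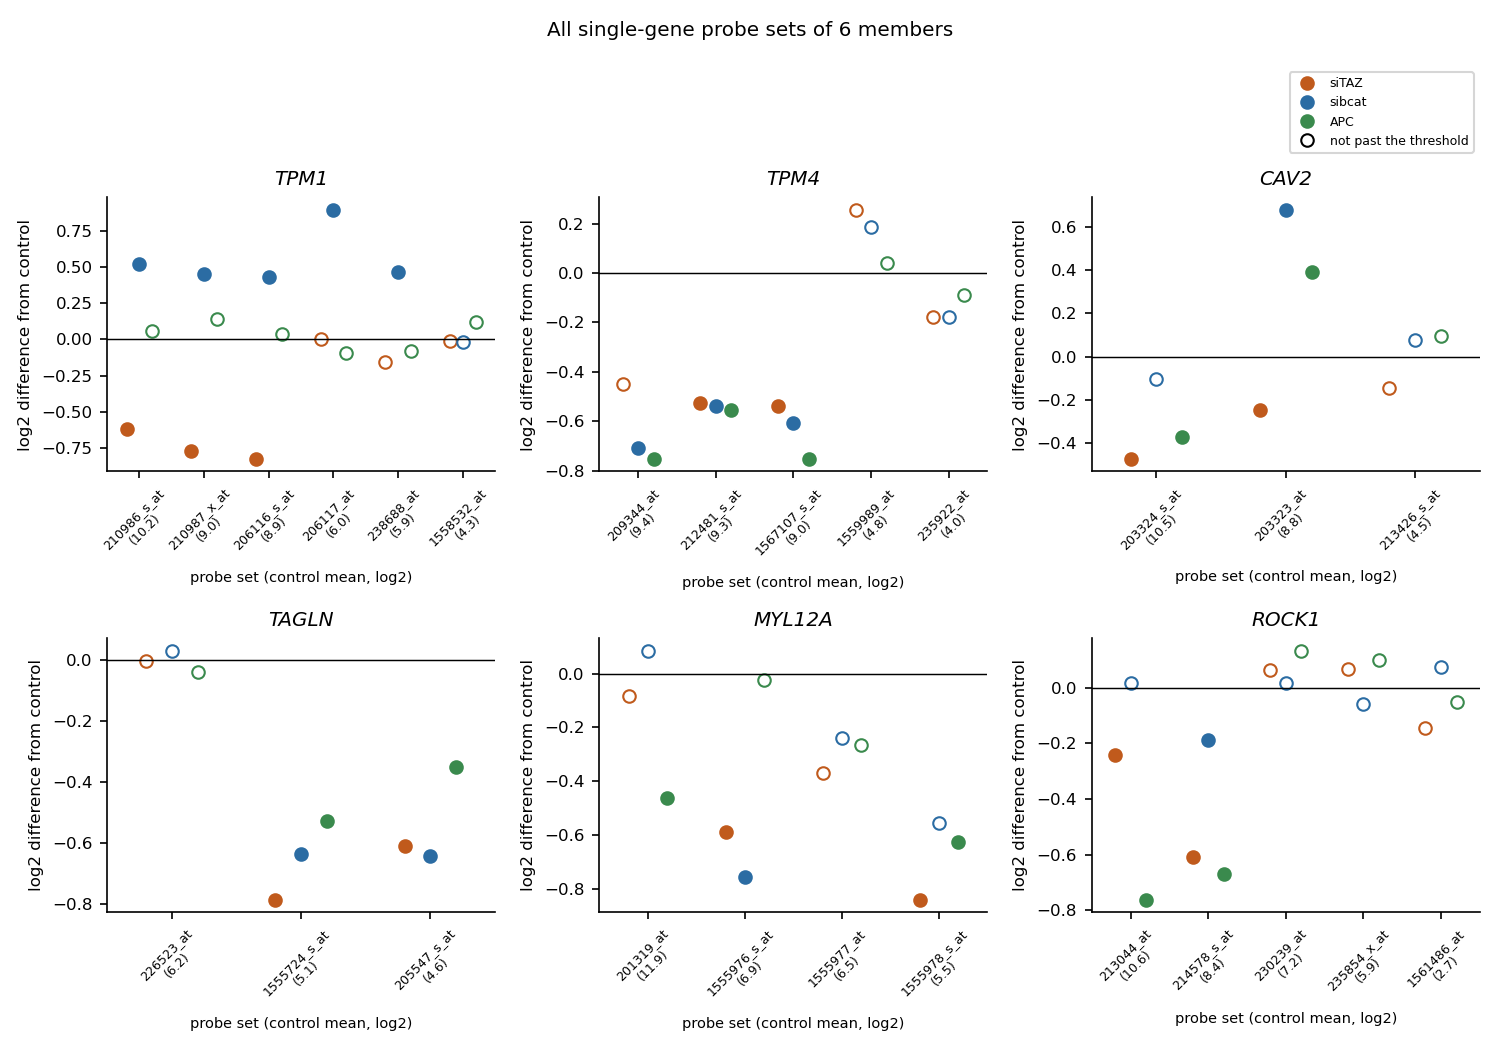
Log2 difference from control for every single-gene probe set of TPM1, TPM4, CAV2, TAGLN, MYL12A and ROCK1, ordered by control mean (in brackets), in siTAZ, sibcat and APC cells; filled circles passed the test. The 3 brightest TPM1 probe sets fell in siTAZ cells while the 5 brightest rose in sibcat cells, and CAV2 probe sets differ in sign in APC cells.

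A further 90 genes of the same pathways were listed, of which 80 were measured. In sibcat cells 38 of the 80 were higher and 15 lower (median 0.164), in APC cells 20 higher and 26 lower (-0.046), and in siTAZ cells 19 higher and 16 lower (0.035), each against control cells and to be read against the backgrounds above. MYLK, the kinase of myosin light chains, stood at 7.31 ± 0.08 in sibcat cells against 5.15 ± 0.25 in control cells (2.16) and rose by 0.53 in siTAZ cells. SVIL, supervillin, which ties myosin and actin to membranes, rose by 1.83 in sibcat cells and 1.63 in APC cells. FERMT2, kindlin 2, an integrin activator, fell by 1.51 in sibcat cells and 1.39 in APC cells. ENAH, a relative of VASP, rose by 1.52 in APC cells, where SSH1, a cofilin phosphatase, fell by 0.83. In siTAZ cells CFL2, cofilin 2, stood at 8.72 ± 0.06 against 10.04 ± 0.07 in control cells (-1.33), MSN, moesin, fell by 0.97, and CAPZB, a capping protein subunit, rose by 0.53. LIMK2 fell by 0.93 in sibcat cells. ACTB, often taken as a constant gene, did not pass in siTAZ (-0.07) or sibcat cells (0.09) and was lower in APC cells (-0.32, adjusted p = 0.01092).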

How the data were processed

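RNA of 16 SW480 samples in 4 labelled groups was hybridised to Affymetrix arrays. The deposited table holds 1 log2 value per probe set and array, made by the authors with RMA per the submitters' processing notes, which corrects background, normalises between arrays and summarises probes, so arrays share 1 scale; RMA is known to compress large differences. Values ran from 1.8 to 14.56, no arrays were identical, and precision is limited by having 4 arrays a group.

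Of 54675 probe sets, 41097 were annotated to 1 gene, 1801 to several and 11777 to none here. Gene IDs matched RefSeq for 41043 and changed 0 symbols. The brightest single-gene probe set by mean over 16 arrays stood for each of 19775 genes. limma 3.58.1 in R 4.3.3 (lmFit, eBayes, 12 residual degrees of freedom) was fitted to all arrays, with 6 contrasts and Benjamini-Hochberg adjustment at 0.05, and was tested on simulated data. Probe sets were also tested singly. Exact permutation tests used scipy 1.17.1 on Python 3.11.15, and figures matplotlib 3.10.9. The median probe set level, 5.10, served as a guide to background.

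Genes given array by array passed the test with at least a 1.5-fold difference from control and a brighter mean above that level; of the further pathway genes, the 2 largest rises and falls per comparison were named. TPM1, CAV1, VCL, LIMS1 and ROCK2 below that fold, PFN1 and values for other genes were chosen after they were seen. The genes and lists were chosen with earlier results of these data known. The labels do not say what a replicate letter shares. Correlations of deviations from group means between same-lettered arrays ran from 0.084 to 0.403, and 22 of 24 exceeded 0.1. All exceeded it, and the letters were taken to pair the arrays, in every comparison except siTAZ with control (0.092 for letter D) and siTAZ with APC (0.084 for letter A). The main fit and the exact permutation tests did not use this pairing. Calls that the replicate block changed are given in the text. Alternatives changed the block, probe set choice, filter, weights, centring, a covariate for the 3′ excess of ACTB, samples in the fit and arrays left out.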

Additional observations from a re-analysis of the deposited data

Results flagged for a closer look

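Over the 42 genes and 4 groups, 168 sets of 4 arrays were examined for a single array far from the other 3, and 10 were found; chance gives about 1 in 20. In APC cells, ACTA2 was 6.84 in array A against 6.52 to 6.56 in the others, VCL 10.87 in array D against 10.93 to 10.94, and PARVA 9.2 in array C against 9.03 to 9.05. In sibcat cells, array A held PARVA at 9.24 against 9.14 to 9.15 and PTK2 at 8.65 against 8.78 to 8.79. In siTAZ cells, PXN was 8.05 in array A against 7.87 in the others, CAV1 10.0 in array D against 9.96, LIMS1 8.07 in array B against 7.77 to 7.78, and MRTFB 8.87 in array B against 9.02 to 9.04. In control cells, ROCK2 was 10.36 in array B against 10.41 to 10.42.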

How the results depend on the processing

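Of 252 gene-by-comparison values, a replicate block left 234 on the same side of the threshold, moved 17 past it and 1 out of it; with the replicate block 22 genes changed in siTAZ, 25 in sibcat and 27 in APC cells against control cells, beside 18, 22 and 25 without it. Beyond the calls given in the text, the block moved, in siTAZ cells against control, MYL9 (0.328, adjusted p = 0.02075), ILK (0.235, adjusted p = 0.008205), RHOB (0.172, adjusted p = 0.02524) and PFN1 (-0.262, adjusted p = 0.0004589), and against APC cells ILK (0.258, adjusted p = 0.003142) and PFN1 (-0.13, adjusted p = 0.03069), past the threshold; it changed no other call of the 42 genes. The ACTB covariate moved 7 of the 252 values out of the threshold and 12 past it. Without probe sets ending _x_at, _s_at or _a_at (37 genes kept), 11 genes changed in siTAZ cells (6 higher, 5 lower), and averaging all probe sets left 3 higher. Using arrays A and B alone, an alternative added after seeing the data, gave 11 in siTAZ cells (4 lower) and 14 in sibcat cells (4 lower), and C and D alone gave 5 higher in siTAZ cells; these fits have fewer samples. The shares of all genes called in these refits were not counted, so the counts describe only the 42 genes. Asking also for a 1.5-fold difference left 2 genes in siTAZ cells (0 higher, 2 lower) and 4 in sibcat cells (1 higher, 3 lower). In APC cells it left 9 (0 higher, 9 lower). It left 8 between siTAZ and sibcat, 7 between APC and sibcat and 11 between siTAZ and APC cells. Of all genes, 5.69% were higher and 5.84% lower by that factor in siTAZ against sibcat cells. In APC against sibcat cells 6.04% were higher and 8.24% lower. Directions turned when all probe sets were averaged, in siTAZ cells for PARVA (0.036) and DIAPH1 (-0.009), in sibcat cells for TAGLN (-0.416), MYL12A (-0.366) and CAV2 (0.218), in APC cells for MRTFA (0.132) and CAV2 (0.038), between APC and sibcat cells for MYL12A (0.021), TPM2 (-0.151) and MRTFA (0.004), and between siTAZ and APC cells for MYL12A (-0.125), VCL (-0.01), PARVA (0.027) and MRTFA (-0.057). Without the _x_at, _s_at and _a_at sets they turned in siTAZ cells for TPM1 (0.005), PARVA (0.277) and DIAPH1 (-0.043), in sibcat cells for LIMK1 (-0.07) and CAV2 (0.68), in APC cells for DIAPH1 (-0.062) and CAV2 (0.39), between siTAZ and sibcat cells for PARVA (0.145) and DIAPH1 (-0.015), between APC and sibcat cells for DIAPH1 (-0.035), and between siTAZ and APC cells for TPM1 (0.1), PARVA (0.34) and DIAPH1 (0.02). With arrays C and D alone TAGLN turned in siTAZ cells against control (0.195) and sibcat cells (0.18). Which transcripts the probe sets read was not tested. MYL9 in APC cells lost its call without those probe sets (-0.275). Some genes given array by array kept direction and call under every alternative run at the same threshold. They were TAGLN2, VCL, RND3, RHOB, ACTA2, ZYX, LIMS1, TGFB1I1 and ROCK1. This holds for the comparisons with control in which their arrays are given.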
